A study of Arabidopsis thaliana with 9 samples.

Results

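The prmt5 mutant of Arabidopsis thaliana was compared with wild type at the level of genes, of annotated alternative splicing (AS) events and of introns. The comparison took the 3 libraries labelled prmt5 and the 3 labelled WT, 6 of the 9 libraries of the series, by their sample labels, and it asked which genes and which splicing events differ in the mutant and how far both kinds of change fall in the same gene. Both genotypes are in the Columbia ecotype, the mutant line carries the prmt5-5 allele, and plants of both grew on Murashige and Skoog agarose medium at 22 °C in continuous light after 4 d of stratification. Whole plants were harvested after 15 d by the labels (the methods give a shorter time, and the age is the same for both genotypes in either case). Poly(A) RNA was purified from 3 µg of total RNA, and libraries with 12 cycles of PCR gave single-end reads. The mutant is represented by 1 allele, and the records do not say whether replicates came from separate cultures, so each p-value measures the spread between these libraries. As whole plants were sampled, fewer cells of a type and less RNA per cell cannot be told apart. The same WT libraries serve the comparison of the prmt4a;4b double mutant, which is not described here.

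PRMT5 is a type II protein arginine methyltransferase, which places symmetric dimethyl groups on arginines. Its known substrates include histones and the Sm and LSm proteins that form the core of the spliceosomal small nuclear ribonucleoproteins, and plants without it are known for late flowering, a long circadian period and widespread splicing defects. In the count tables a gene has a number of reads, and so has each intron and each AS bin, which is a stretch of a gene that some annotated isoforms keep and others leave out.

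Depth was 25029646 to 31835579 gene reads in the WT libraries and 31917097 to 39904677 in the prmt5 libraries. The first principal component of the gene levels held 56.4% of the variance and separated the genotypes. Replicates differed by more than counting error in every pair (chi-square per degree of freedom 15.5 to 72.8). Plastid-encoded genes took 0.323 to 0.58% of the reads in WT and 0.604 to 2.1% in prmt5, with the highest share in prmt5 replicate 1. Introns outside annotated events took 16.3 to 17.0 reads per 1000 gene reads in WT and 19.8 to 21.0 in prmt5, without overlap. The shoot was represented by light-harvesting and Rubisco genes and the root by PYK10, a root beta-glucosidase gene, at 59977 to 65142 normalized counts in WT and 46169 to 52885 in prmt5. The floral organ identity genes AP1 and AP3 were at 0 in every WT library and at most 1.91 normalized counts in prmt5.

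PRMT5 itself (listed as SKB1, AT4G31120, TAIR10 chromosome 4, 15132011 to 15136639) was at 756, 749 and 785 normalized counts in WT and 1066, 881 and 819 in prmt5. Its log2 change of 0.27 ± 0.13 (standard error of the edgeR fit) did not pass the test (adjusted p = 0.138 in the quasi-likelihood test with Benjamini-Hochberg adjustment). A count over the whole gene does not check which part of the transcript the allele alters. Of its listed introns, 4 had enough reads for a test and 3 of these were called raised by the rule for introns given further on, of which I003 and I010 also passed a test of their share of the gene's reads (I009 did not, at an adjusted p of 0.193). Introns are named as in the deposited tables, which number them along the chromosome. Intron I003 had 0 reads in all WT libraries and 11, 18 and 1 in prmt5 (adjusted p = 0.00237). Intron I010 had 4, 1 and 3 in WT against 16, 23 and 12 (adjusted p = 0.00518), and I009 had 5, 2 and 4 against 12, 10 and 11 (adjusted p = 0.108, under the limit of 0.15 used for introns, but not passing without WT replicate 2, prmt5 replicate 1 or prmt5 replicate 3). Reads of introns and bins are printed as counted, without scaling. Intron I006, at 5, 8 and 9 against 6, 5 and 4, did not pass.

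A gene was tested where either genotype averaged 10 reads or more, and it was called where its log2 change exceeded 0.58 in size and its adjusted p was below 0.10. Of 21078 genes tested, 2505 rose (11.9%) and 2996 fell (14.2%) in prmt5. Most changes were small. The median fold was 1.82 among genes that rose and 1.81 among those that fell, and the large changes were mainly rises, with 192 genes up and 80 down by more than 4-fold and 62 up and 13 down by more than 8-fold. The libraries of WT and prmt5 did not overlap in 2297 of the rises and 2822 of the falls, against 46.8% of all genes tested. With any 1 library left out, 1446 rises and 1867 falls passed each time. The direction varied with the level of the gene. Among 823 genes over 5000 normalized counts 17.9% rose and 7.78% fell, whereas among 9542 genes of 50 to 500 counts 11.2% rose and 17.3% fell. The change was not a steady one with level. Of 7117 genes of 500 to 5000 counts 11.5% rose and 13.1% fell, and of 3596 genes under 50 counts 13.1% rose and 9.68% fell. The nuclear chromosomes were alike, with 25.9 to 26.2% of the genes changed on each, and 28.7% of 443 genes within 1 Mb of PRMT5 were changed. Of 200 long noncoding RNA genes tested, 17 rose and 33 fell.

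The rises with at least 200 normalized counts and no overlap were led by 2 transcription factor genes. NAC044, which encodes a NAC factor of the DNA damage response, stood at 29.3, 33.2 and 22.7 normalized counts in WT and 204, 266 and 329 in prmt5 (log2 change 3.21 ± 0.25, adjusted p = 4.11e-05). TGA9, a bZIP factor gene known for its role in anthers, went from 479, 393 and 475 to 3522, 3923 and 3619 (3.04 ± 0.14, adjusted p = 8.71e-07). Both were tight within a genotype. AT1G12730, which encodes the PIG-U subunit of the GPI transamidase that attaches lipid anchors to proteins, went from 84.7, 102 and 105 to 715, 723 and 713 (2.88 ± 0.15, adjusted p = 3.04e-06), and AT1G17960, a threonyl-tRNA synthetase gene, rose by 2.90 ± 0.29. AT1G60060, annotated as a WNK kinase-like gene, was at 117, 137 and 164 against 851, 710 and 586 (2.36 ± 0.19). Others of the largest rises were less even. EXT13, a gene for an extensin-like cell wall protein, was at 123, 163 and 268 in WT and 1126, 1127 and 447 in prmt5 (2.29 ± 0.35, adjusted p = 0.00109), and AT3G10930, which encodes an uncharacterized protein, was at 28.2, 68.2 and 25.2 against 229, 78.9 and 562, so its rise of 2.80 ± 0.61 rested on 2 of the 3 libraries.

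The falls of the same kind included a pair of genes for small defence peptides. AT1G66100, a thionin gene, went from 665, 506 and 398 to 95.3, 70.6 and 77.3 normalized counts (log2 change −2.70 ± 0.22, adjusted p = 4.55e-05). AT3G05730, a defensin-like gene, went from 2825, 3117 and 1762 to 366, 536 and 676 (−2.29 ± 0.25, adjusted p = 2.00e-04). In both, the highest prmt5 library lay well below the lowest WT library. BGLU19, a beta-glucosidase gene, was at 651, 1255 and 889 against 295, 120 and 77.3 (−2.52 ± 0.40, adjusted p = 0.00126). AT1G31690, which encodes a copper amine oxidase, fell by 2.25 and AT5G52790, which encodes a CBS domain protein, fell by 2.69. The largest falls of all with these limits, in the uncharacterized AT5G35935 (219, 125 and 289 against 16.4, 9.14 and 8.58), the kelch repeat gene AT5G50310 and the phosphatidylinositol 4-kinase gene AT5G24240, left under 55 normalized counts in every prmt5 library.

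**Figure D1:**
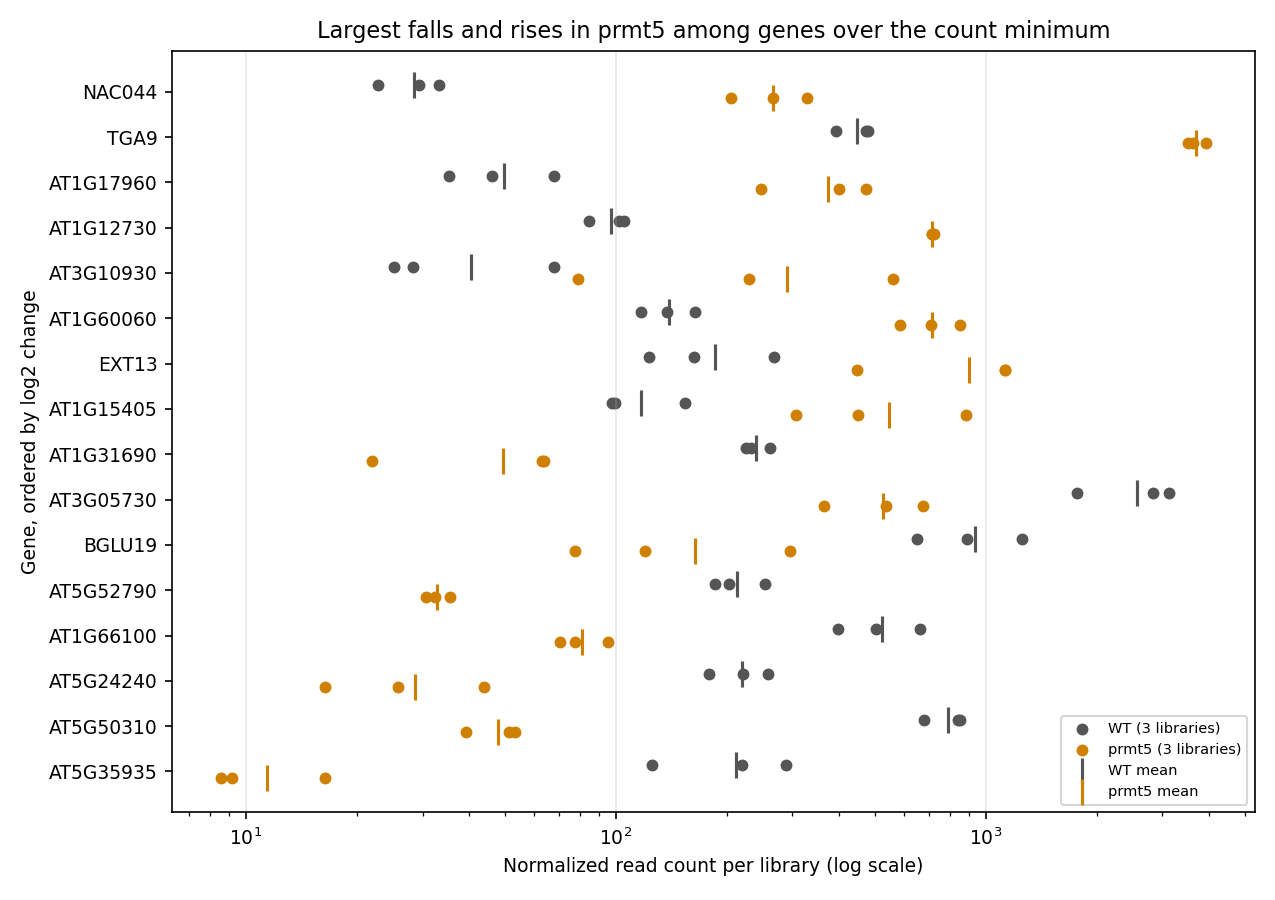
Normalized read counts on a log scale in each of the 3 WT (grey) and 3 prmt5 (orange) libraries for the genes with the largest rises and falls among those with at least 200 normalized counts in the higher genotype and no overlap. Points are libraries and vertical bars are means of 3. NAC044 at the top moved from 22.7 to 33.2 in WT to 204 to 329 in prmt5, and AT5G35935 at the bottom from 125 to 289 to 8.58 to 16.4.

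Genes were then read by pathway and family. Each list is given by how many of its tested members rose or fell and by its median log2 change, beside 11.9%, 14.2% and −0.01 over all genes tested. List counts of 1 or 2 could move by 1 with a library left out, and other counts that then moved by over 1.5 times are given.

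Among the lists of RNA processing the SR genes were called most often. Of 20 genes for serine/arginine-rich (SR) splicing factors, which bind exons and introns and recruit the spliceosome, 11 rose and none fell (median 0.63). SR34a was at 2419, 2143 and 2624 in WT and 7737, 5511 and 5747 in prmt5 (1.40 ± 0.15, adjusted p = 0.000217), and SR45a and RS31a rose by 1.27 and 1.19. The summed level of the list was 39596 to 49137 in WT and 64358 to 79649 in prmt5. Of 68 genes annotated as RNA helicases, 14 rose and 6 fell (median 0.20), led by PMH1, a mitochondrial helicase gene (644, 698 and 667 against 1163, 1379 and 1427, 0.98 ± 0.13), and at the other end by AT1G15260, annotated as helicase-like (−1.30 ± 0.13). The falls were 3 without WT replicate 1. Of 17 genes of the spliceosome core and of the complex that loads Sm proteins, 2 rose and none fell (median 0.23). The list of nonsense-mediated decay and RNA turnover had 2 rises among 21 genes, XRN4, a cytoplasmic exoribonuclease gene (0.63 ± 0.12), and HEN2, a nuclear exosome helicase gene (0.60 ± 0.12), with no fall and a median of 0.28. XRN4 did not pass without WT replicate 2 nor HEN2 without prmt5 replicate 1.

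The histone and ribosome assembly lists held rises and no fall. Among 19 histone genes, 8 rose and none fell (median 0.48), and the summed level was 34629 to 38711 in WT and 49704 to 56073 in prmt5. HTR12, the centromeric histone H3 gene, went from 108, 70 and 121 to 203, 253 and 294 (1.34 ± 0.23, adjusted p = 0.00202), and H2AXA, a gene for the histone variant that is phosphorylated at DNA breaks, from 2360, 2249 and 2853 to 5908, 4376 and 4761 (1.01 ± 0.15, adjusted p = 0.000898). Histone genes have close copies, so part of their reads may be split between them. Genes of the cell cycle and DNA replication held 2 rises and 1 fall among 30. These were ICK1, a cyclin-dependent kinase inhibitor gene (1.00 ± 0.17), MCM4, a gene of the replicative helicase (0.77 ± 0.15), and the cell division control gene CDC2, which fell by 0.93. Of 15 ribosome assembly genes, 5 rose and none fell (median 0.31). NUC-L2, a nucleolin gene, went from 79.5, 65.4 and 136 to 345, 351 and 380 (1.95 ± 0.24, adjusted p = 0.000399), and SWA1 and NAP57, genes of ribosomal RNA processing and pseudouridylation, rose by 0.85 and 0.82.

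The auxin and jasmonate lists held mostly falls. Of 38 early auxin response genes, 16 fell and 3 rose (42.1% and 7.89%, median −0.53). SAUR27, of a family of small auxin-induced growth genes, was at 54.4, 62.6 and 59.2 in WT and 14.2, 15.0 and 7.63 in prmt5 (−2.25 ± 0.37, adjusted p = 0.00159), SAUR26 at 101, 88.4 and 83.2 against 20.8, 24.1 and 22.9 (adjusted p = 0.000666), and SAUR22 fell by 1.33. These genes lie in clusters of near-identical copies, so their separate counts are uncertain. IAA28, a repressor gene of auxin signaling, rose by 0.71 ± 0.16, and so did IAA16, by 0.71 ± 0.18, which did not pass without prmt5 replicate 1. The counts were 1 rise and 17 falls without that replicate. The summed level of the list, in which IAA16 is abundant, overlapped between genotypes (34485 to 39926 and 34788 to 49218).

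Of 29 genes of jasmonate synthesis and signaling, 10 fell and 1 rose (34.5% and 3.45%, median −0.30), and the summed level was 41378 to 47569 in WT and 31463 to 39119 in prmt5. VSP2, a vegetative storage protein gene commonly used as a jasmonate marker, went from 1945, 2594 and 3098 to 935, 513 and 630 (−1.88 ± 0.23, adjusted p = 0.000344). JAZ3 and JAZ6, which encode repressors that the hormone removes, went from 209, 229 and 192 to 89.8, 114 and 40.1 (−1.37 ± 0.30) and from 856, 1591 and 983 to 583, 750 and 396 (−0.99 ± 0.25). Of the remaining falls, named here for their role after the values were seen, COI1, the gene of the receptor, fell by 0.62, LOX2, a lipoxygenase gene of synthesis, fell by 0.61, and JAR1, whose enzyme joins jasmonate to isoleucine, fell by 0.66. None of these 3 passed without prmt5 replicate 1, nor COI1 without WT replicate 1 and LOX2 without WT replicate 3. TAT3, a tyrosine aminotransferase gene, rose (11.5, 23.9 and 42.9 against 75.6, 135 and 50.6, 1.77 ± 0.47). Falls were called in genes of synthesis, reception and repression, those named for synthesis and reception only with prmt5 replicate 1 included. The rises of the list were 5 without WT replicate 2 and 3 and 4 without prmt5 replicates 2 and 3.

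Other hormone lists were mixed. Of 36 gibberellin and brassinosteroid genes 3 rose and 5 fell (median −0.06, with 3 falls when WT replicate 1 or 3 or prmt5 replicate 3 was left out). GASA4, a gibberellin-regulated gene, was the clearest (3428, 3973 and 3693 against 1761, 1781 and 1603, −1.11 ± 0.12, adjusted p = 2.00e-04). Of 20 ethylene response factor genes, 6 rose and 1 fell (median 0.56). Here the libraries of the mutant disagreed. ERF11 was at 43.9, 86.6 and 31.5 in WT and 172, 74.0 and 561 in prmt5 (2.29 ± 0.62, adjusted p = 0.0167), and ERF5 at 136, 303 and 120 against 175, 192 and 1384 (1.64 ± 0.68, adjusted p = 0.0875), with overlap in both. The log2 change of ERF5 was −0.03 without prmt5 replicate 3. The summed level of the list was 12408, 8680 and 22703 in the prmt5 libraries and 6689 to 9889 in WT, and 10 genes rose without prmt5 replicate 2.

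Protein turnover genes divided. Of 37 proteasome subunit genes, 12 fell and 5 rose (32.4% and 13.5%, median −0.33), although the summed level was higher in prmt5 (91641 to 93904) than in WT (82495 to 86307). The falls included the catalytic core gene PBB1 (2141, 2169 and 1592 against 998, 1139 and 976, −0.92 ± 0.15, adjusted p = 0.00129), the core gene PBF1 (−0.87 ± 0.15) and RPN13, a gene of a ubiquitin receptor (−0.86 ± 0.18). RPN1B, of the regulatory cap, rose from 1853, 1696 and 1614 to 3389, 3514 and 3633 (1.03 ± 0.12, adjusted p = 0.000262), and the core genes PAD2 and PAD1 rose by 0.80 and 0.69. Members of the same particle therefore moved in opposite directions. Of 170 tested F-box genes, which encode the substrate receptors of a class of ubiquitin ligases, 24 rose and 20 fell, counts near the background. Of these 170 genes 13 rose without prmt5 replicate 1, and the list had 13 falls without WT replicate 1.

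In metabolism and nutrition, 7 of 26 glucosinolate genes fell and 2 rose (median −0.19). MYB34, a regulator of indolic glucosinolates, went from 1273, 1346 and 1205 to 538, 608 and 526 (−1.19 ± 0.12, adjusted p = 0.000174), CYP79B3, the gene of a first enzyme of that branch, from 2612, 2769 and 2784 to 1107, 1385 and 1471 (−1.04 ± 0.13), and the sulfotransferase gene SOT16 fell by 0.91. CYP79F2, of the aliphatic branch, rose by 0.72. Of 20 nitrate uptake and assimilation genes 5 fell and 2 rose (median −0.15). NRT1.5, a transporter gene that loads nitrate into the xylem, went from 6233, 5129 and 5342 to 1992, 1667 and 2269 (−1.49 ± 0.14, adjusted p = 0.000122), and ASN1, an asparagine synthetase gene, from 1100, 1676 and 2726 to 6722, 4207 and 3595 (1.40 ± 0.30, adjusted p = 0.00557). The falls were 2 without prmt5 replicate 1 and 3 without WT replicate 1.

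Iron genes were divided. Of 24, 4 rose and 4 fell (median −0.02). YSL1 and YSL3, genes of transporters of iron chelates, went from 254, 212 and 242 to 528, 733 and 859 (1.58 ± 0.18, adjusted p = 0.000281) and from 624, 564 and 606 to 1559, 1513 and 1325 (1.29 ± 0.13, adjusted p = 0.000122), and FRD3, which loads citrate into the xylem, rose by 0.80. The genes of root iron uptake IRT1 (transporter, −0.83 ± 0.23), FRO2 (reductase, −0.68 ± 0.24) and their regulator FRU (−0.69 ± 0.26) fell. IRT1 overlapped between genotypes (1948, 1576 and 1236 against 653, 1251 and 775). FRO2 did not pass, and the list had 2 falls, when WT replicate 1 or prmt5 replicate 1 or 3 was left out. FRU passed, of the libraries left out in turn, only without WT replicate 3.

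Further lists held calls in both directions or few calls. Of 33 phenylpropanoid and flavonoid genes 5 rose and 5 fell, with 2 rises without prmt5 replicate 1 and 3 without WT replicate 2. C4H, OMT1 and CCoAOMT1, genes of the shared and lignin steps, fell by 0.98, 0.87 and 0.86, and CAD5, of the last lignin step, rose by 0.78. In wax and cutin synthesis 5 of 25 rose (20%) and 1 fell (4%), namely MYB96, a wax regulator gene that fell by 0.86. LACS1 (2160, 1999 and 1935 against 3243, 3576 and 4127) and LACS2, genes of long-chain acyl-CoA synthetases, rose by 0.85 and 0.79. Of 19 senescence and sugar starvation genes 5 rose and 3 fell (26.3% and 15.8%), with DIN11 up (54.4, 32.2 and 30.2 against 241, 167 and 173, 2.30 ± 0.27) and the senescence regulator gene NAP down (85.8, 86.6 and 51.7 against 23.0, 25.8 and 36.2, −1.40 ± 0.33). In the list of heat shock and the unfolded protein response 3 of 21 rose (1 without prmt5 replicate 2) and 4 fell, among them HSP90.1 (−1.27 ± 0.19). Of 11 cellulose synthesis genes 1 fell, CSI1, whose protein ties cellulose synthase to microtubules (−0.70 ± 0.11), and of 17 phosphate starvation genes 1 rose, the phospholipase gene PLDP2 (0.72 ± 0.19).

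Among large families, pentatricopeptide repeat genes, whose proteins edit and splice organelle RNA, had 23 rises and 8 falls among 257 tested (8.95% and 3.11%, median 0.14), with 12 rises without prmt5 replicate 1 and 4 falls without WT replicate 1. Receptor-like kinases had 18 rises and 33 falls among 244, protein phosphatases 2C 3 and 5 among 55 (1 rise without WT replicate 1 and 5 without prmt5 replicate 2), MYB genes 8 and 10 among 78, NAC genes 6 and 7 among 59 and basic helix-loop-helix genes 1 and 2 among 12. All of these shares were at or below the background, apart from the falls of 2 helix-loop-helix genes. These were bHLH115 (1624, 1652 and 1229 against 725, 731 and 576, −1.15 ± 0.16) and bHLH121 (−0.83 ± 0.14), which regulate iron uptake.

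**Figure D2:**
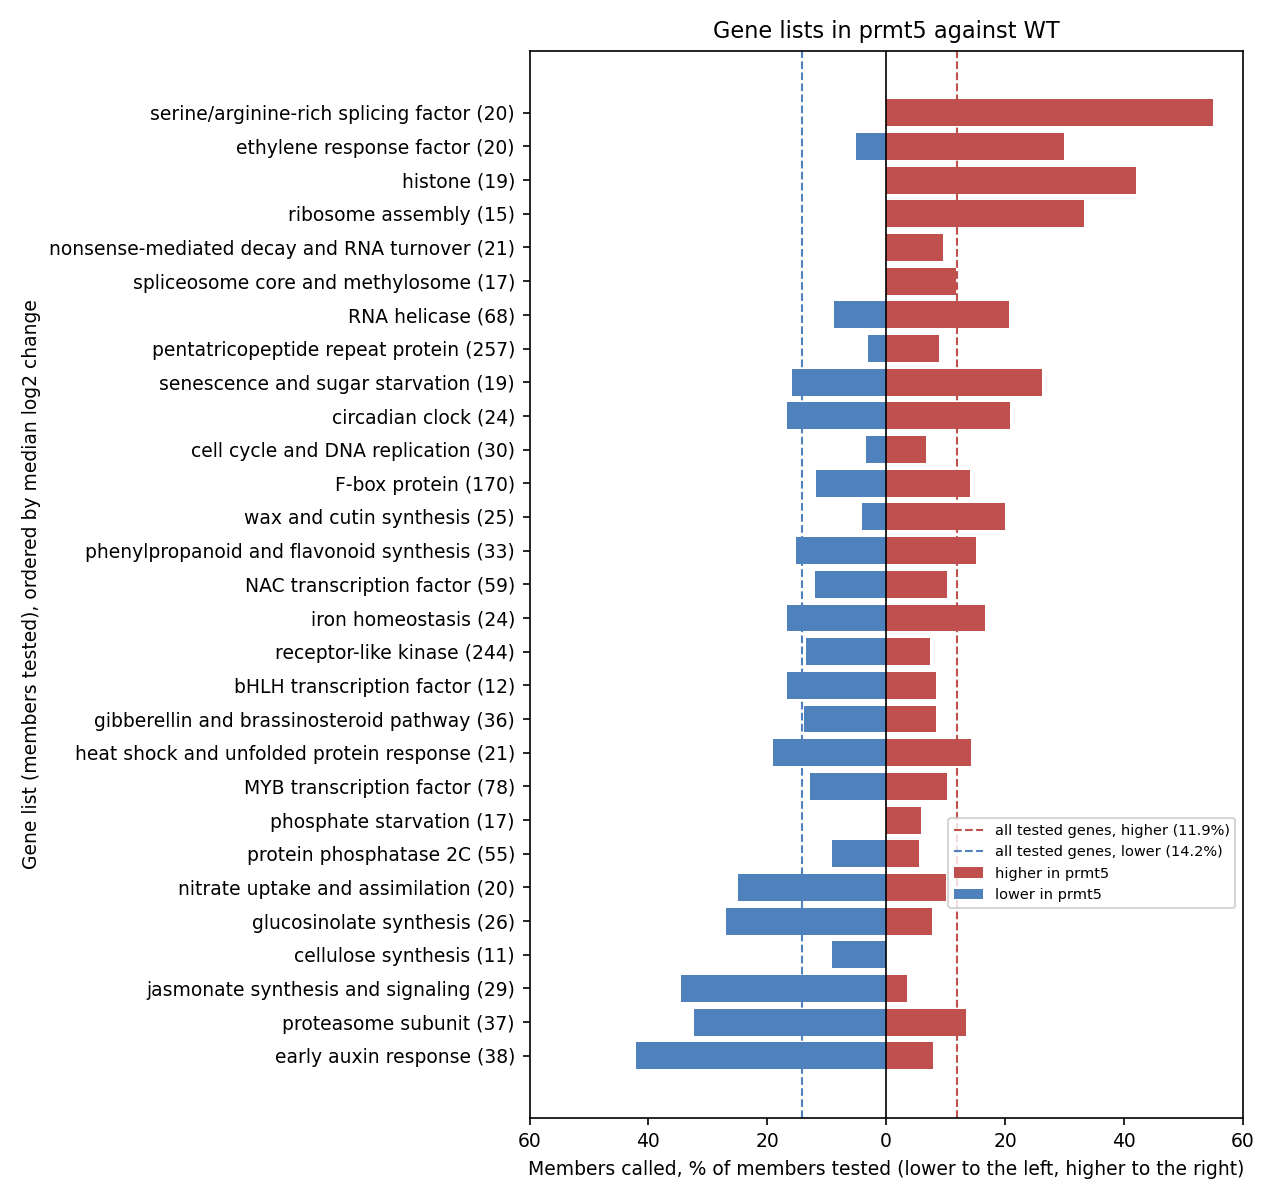
Percent of the tested members of each gene list that were higher (red, to the right) or lower (blue, to the left) in prmt5, ordered by median log2 change, with the number tested in brackets. Dashed lines mark all tested genes at 11.9% higher and 14.2% lower. SR splicing factors reach 55.0% higher and early auxin response genes 42.1% lower.

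Tissue markers and organelle genes moved as well. Of 60 plastid-encoded genes 32 rose and none fell (median 0.84, with 20 rises without prmt5 replicate 1 and 21 without prmt5 replicate 3), and of 37 mitochondrial genes 7 rose and none fell (median 0.62). These lists served as a sign of RNA without a poly(A) tail. In libraries of poly(A) RNA, more transcript and more carry-over of such RNA cannot be told apart. The plastid rises were led by the ribosomal RNA gene RRN16S.1 (16266, 15126 and 29751 against 127654, 32890 and 59622). RRN16S.2 had nearly the same counts (127596, 32885 and 59609 in prmt5), so entries of the list are not all separate. Of 11 root markers 4 rose (the root hair genes EXPA18, EXPA7 and LRX1 and the Casparian strip gene CASP1, by 1.56, 1.51, 1.23 and 1.11) and 1, IRT1, fell, while the summed level, dominated by PYK10, was 65198 to 71098 in WT and 53059 to 62053 in prmt5. Of 14 seed markers 5 rose and 1 fell (median 0.90), but the libraries of prmt5 were far apart, with summed levels of 15151, 1538 and 3436 against 4850 to 8039 in WT. Without prmt5 replicate 1 there were 2 rises and 5 falls, and 3 rises without WT replicate 2 or 3. Of 11 green leaf markers 1 rose and 1 fell. The floral identity genes AP1 and AP3 were at or near 0. Of 8 floral organ markers 2 could be tested, and neither was called (median −0.67). The summed level of this list was 161 to 218 in WT and 115 to 183 in prmt5. The part of these markers in the results of other lists was not tested.

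The number of introns of a gene made a small difference to its level. Among 20252 nuclear protein-coding genes 11.6% rose and 14.3% fell. In the 3126 without a listed intron these shares were 14% and 13.4%, in genes with 3 to 5 introns 11.1% and 16.3%, and in the 2818 with 11 or more 11.3% and 10.1%. Intronless genes are shorter, and short genes changed more often in both directions. Within genes of over 600 to 1200 exonic bases the contrast was clearer, with 18.2% of 1169 intronless genes higher and 15.0% lower (median 0.17) against 12.8% higher and 18.8% lower of 4272 genes with introns (median −0.04). Genes of over 1200 to 2400 bases did not repeat it, with 9.19% higher and 11.7% lower of 1316 intronless genes and 11.2% and 13.9% of 9093 with introns.

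Splicing was read from introns outside annotated events and from AS bins. The splicing index is the read density of the intron or bin divided by that of its gene, so it gives the level of the stretch relative to its gene. It can exceed 1, and did so in some bins and introns, so it is not a share of transcripts. An intron was called raised or lowered when its own reads changed by over 0.58 on the log2 scale at an adjusted p under 0.15 and its index changed by over 0.58 in the same direction. This rule is tied to the gene level, since an intron in a falling gene must gain reads of its own to be called raised. A second rule, the share rule, tests the intron's reads relative to those of its gene. It has the opposite tie, because a gene that gains exonic reads must gain more intron reads to pass it.

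Of 14894 introns tested, in 7662 genes, 4909 were raised (33.0%) and 1088 lowered (7.30%). By the share rule 5008 were raised (33.6%) and 948 lowered (6.36%), and 4256 were raised by both rules. The median index of raised introns went from 0.0389 in WT to 0.211 in prmt5, and 911 had an index over 0.5 in prmt5. Which introns could be tested depended on the reads. Of the 14894, 5663 reached the minimum of 5 reads only in prmt5, and 3429 of these were raised, as they had to be higher to be tested. Of 7645 with at least 5 reads in both genotypes 1480 were raised and 470 lowered. First introns were raised more often (44.6% of 1794) than internal ones (34.4% of 9290) or last ones (21.4% of 2373) in genes with at least 3 introns. These shares include introns that reached the read minimum in prmt5 alone. The share raised also differed by length, at 23.6% of 3406 introns up to 85 bases and 42.3% of 1853 of 301 bases or more. The shares by length include such introns too, and position and length were not separated. Most affected genes had 1 raised intron (2591 genes), 941 had 2 to 4 and 24 had 5 or more. At the top were EDD1, a glycine-tRNA ligase gene with 8 of 13 tested introns raised and a gene level change of 0.84, and the CTP synthase gene AT4G02120 with 8 of 11 at a gene level change of 0.34 (adjusted p = 0.0804). In YSL3, the iron chelate transporter gene, all 6 tested introns were raised. In 76 of 1811 genes with at least 3 tested introns every one was raised, and 283 genes had both a raised and a lowered intron. These counts per gene include introns that reached the read minimum in prmt5 alone, which had to be higher in prmt5 to be tested.

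Of 4353 AS bins tested, 675 were raised (15.5%) and 548 lowered (12.6%), and 820 (18.8%) and 590 (13.6%) by the share rule. The classes differed in direction. Annotated retained introns, at 278 raised and 72 lowered of 1207, resembled the other introns. Alternative 3′ sites leaned the other way, with 132 raised and 244 lowered of 1409, and alternative 5′ sites (95 and 114 of 657) and skipped exons (42 and 47 of 379) were balanced.

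To show what the named introns look like at the 5′ splice site, their reference sequences are given here from the last 6 exon bases to the first 14 intron bases (RefSeq, TAIR10.1, whose chromosomes carry the TAIR10 coordinates). Capitals mark the last 2 bases of the exon and the GT that opens the intron. The consensus ends the exon with AG. The introns raised most, chosen by their index as described further on, were:
GL2 I002 (chr1:30037598-30037617, plus strand): tctcTCGTatactactctct
ZIF1 I002 (chr5:4432831-4432850, plus strand): ccacTTGTaacaccttcttc
AT1G12730 I001 (chr1:4334841-4334860, plus strand): gccgCCGTaccgcctctctc
AT5G56140 I001 (chr5:22725647-22725666, plus strand): agagAAGTaatcgaatctta
MMZ3 I003 (chr2:15143461-15143480, minus strand): aacgTAGTtatatctctgtt
AT5G55125 I001 (chr5:22372145-22372164, plus strand): tctcGCGTaaacgcttcttc
SULA I011 (chr2:9112585-9112604, minus strand): ttctCCGTatgcaaattttg
AT5G08650 I011 (chr5:2809626-2809645, minus strand): tgacCAGTactgagtttttg

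Those lowered most were:
CAD1 I001 (chr1:10380005-10380024, minus strand): gatcAGGTaacatagagcgg
CBSX3 I002 (chr5:3429547-3429566, minus strand): gaagAGGTatgtaaatgcac
GLDP2 I003 (chr2:11109900-11109919, minus strand): agcaAGGTaattatgtcttg

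None of the 8 raised introns above follows AG, and each of the 3 lowered ones does. In PRMT5 the raised intron I003 (chr4:15132711-15132730, minus strand) reads tgcaTGGTacctgctttttt, the raised I010 (chr4:15133952-15133971) actaCTGTatgtcatatgtc, and the raised I009 (chr4:15133790-15133809) ttacAGGTaaagtcctgatg. Intron I006 (chr4:15133243-15133262), which was not called, reads atccTCGTatgtgtactcct, so in this gene 1 of 3 raised introns follows AG and the intron not called does not. A difference of this kind held as a tendency over all introns. AG ended the exon before 40.2% of 4828 raised introns, 59.0% of 8688 not called and 68.1% of 1060 lowered, against 52.1% of all 118856 listed introns of the form GT to AG. With at least 5 reads in both genotypes the shares were 43.4%, 58.9% and 66.3%. The pattern was alike whatever the gene level did. AG preceded 37.5% of 960 raised introns in genes that rose, 42.0% of 288 in genes that fell and 40.8% of 3580 in genes not called. Among lowered introns the shares were 72.0% of 275 in genes that fell and 66.3% of 771 in genes not called, and 13 of 14 in genes that rose.

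**Figure D3:**
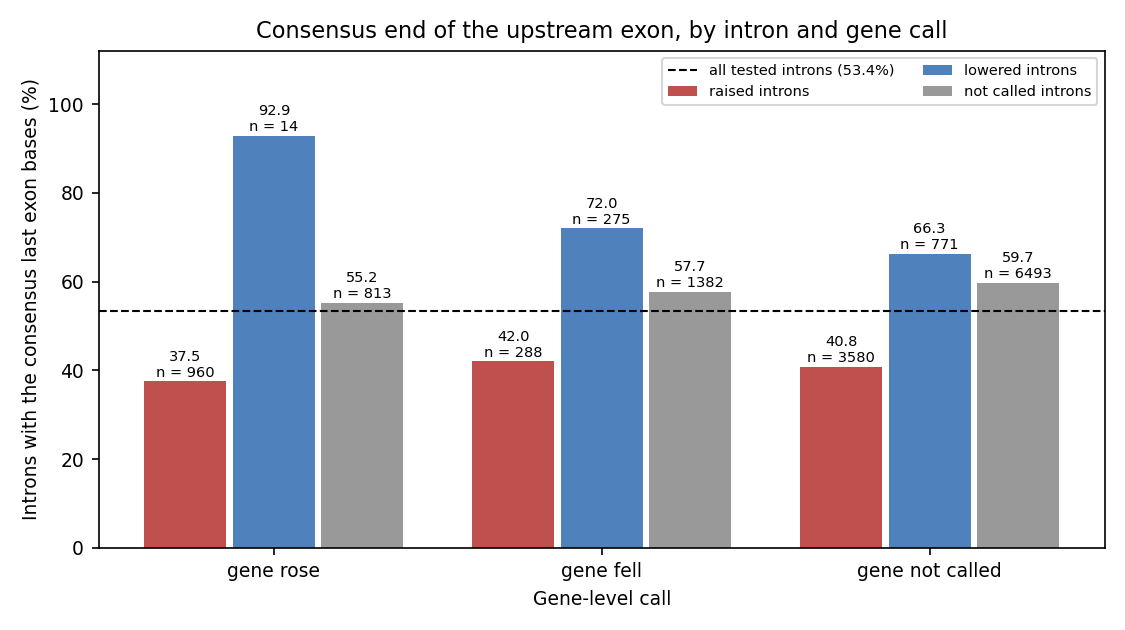
Percent of introns whose upstream exon ends with the consensus bases AG, by the call of the intron (red raised, blue lowered, grey not called) and by the gene-level call, with the number of introns over each bar. The dashed line is 53.4%, the share over all tested introns. Raised introns stay between 37.5% and 42.0% in all gene groups.

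The question of whether gene and splicing changes fall together depended on how splicing was called. Of 7662 genes with a tested intron, 11.9% rose and 14.1% fell. Where introns were called on their own reads, genes with a raised intron rose more often (17.4% of 3556) and fell less often (7.11%), and genes with a lowered intron fell more often (243 of 972) and rose less often (1.34%). Where introns were called on their share of the gene's reads, the contrast was small. Genes with a raised intron then rose in 13.8% and fell in 13.7% of 3739 cases, and genes with a lowered intron rose in 7.77% and fell in 11.4% of 875. For AS bins the rule turned the direction, with 15.1% higher and 5.86% lower of 597 genes with a raised bin by reads and 9.38% and 16.5% of 704 by share, against 10.7% and 14.2% of all 3062. In genes with an intron of at least 20 reads in both genotypes, the direction turned with the rule. A raised intron by reads went with 13.6% higher and 7.14% lower genes (308 genes), and one raised by share with 9.66% and 21.8% (445 genes), beside 12.2% and 14.6% of 1421.

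**Figure D4:**
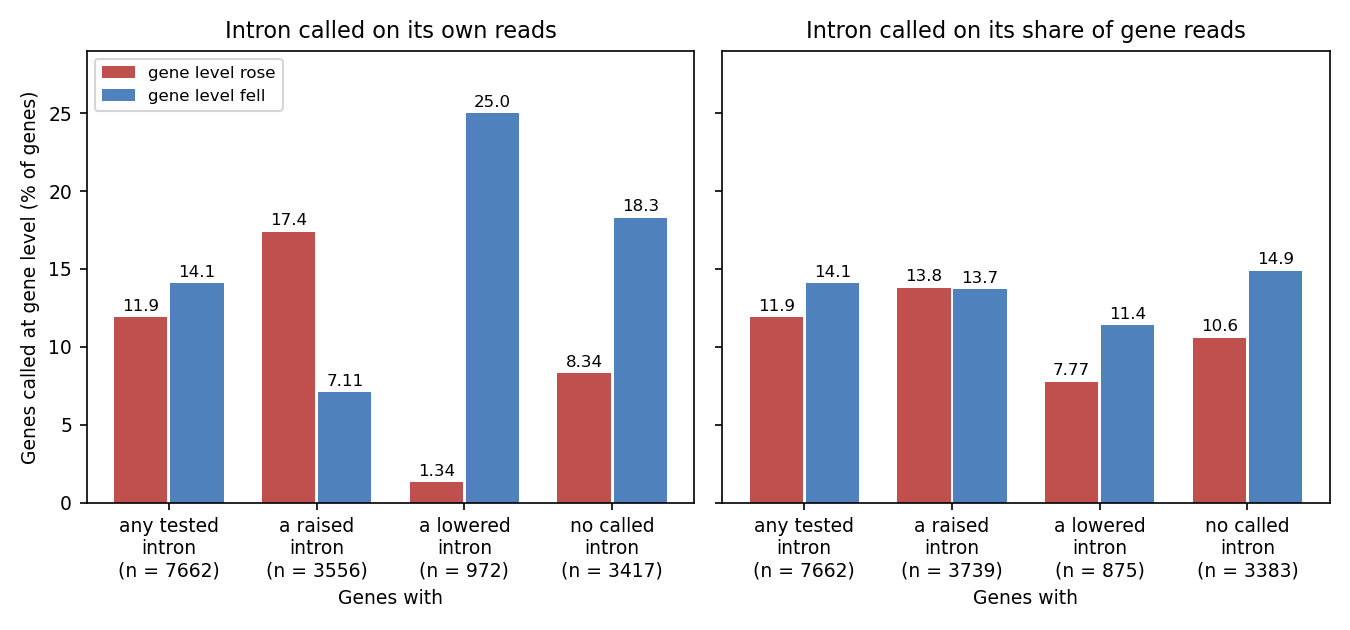
Percent of genes whose level rose (red) or fell (blue) in prmt5, in genes with any tested intron, a raised intron, a lowered intron or no called intron, with introns called on their own reads (left) or on their share of the gene's reads (right). Numbers of genes are under the bars. A raised intron goes with 17.4% rises and 7.11% falls on the left and with 13.8% and 13.7% on the right.

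Taking introns and AS bins together, 8690 genes were tested both for level and for splicing. Of these, 1188 had both a splicing call and a gene call, 3611 a splicing call only, 1041 a gene call only and 2850 neither. A gene call was made for 24.8% of the genes with a splicing call and for 26.8% of those without. With splicing called on own reads, the share of genes with a gene call was thus no higher among genes with a splicing call. Of the genes that changed in level and could be tested for splicing, 53.3% had a splicing call. By the share rule, gene calls were made for 27.5% of genes with a raised intron, 19.2% with a lowered one and 25.6% with neither. Seen by intron, 53.6% of the 1826 tested introns of genes that rose were raised by reads, 32.9% of 11071 in genes not called and 14.7% of 1997 in genes that fell. By share these were 38.9%, 32.8% and 33.4%. All these shares include introns that reached the read minimum in prmt5 alone. With at least 5 reads in both genotypes, the introns raised by share were 25.2% in genes that rose, 21.3% in genes not called and 30.7% in genes that fell. The median log2 ratio of the splicing index over all tested introns was 0.74 in genes that rose, 0.59 in genes not called and 0.55 in genes that fell. These medians include the introns that reached the read minimum in prmt5 alone. Over the introns with at least 5 reads in both genotypes they were 0.20 in genes that rose (816 introns), 0.26 in genes not called (5746) and 0.53 in genes that fell (1083), so the order of the groups turned. The gene's own reads are the denominator of the index, so its ratio is tied to the gene level. The cause of the turned order was not tested. Of the tested introns 3.94% overlapped another listed gene, and the kit does not keep strand, so their reads cannot be assigned. In 262 of 22235 genes the intron reads exceeded the gene reads in some library, so the gene count does not hold all intron reads.

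Genes that rose with more of an intron are shown by those with the largest change of index. GL2, which encodes the homeodomain factor that sets root hair and trichome fate, went from 2847, 2410 and 2876 normalized counts to 7573, 6051 and 6935 (log2 change 1.34 ± 0.13, adjusted p = 0.000145). Its intron I002 had no read in WT and 108, 92 and 77 reads in prmt5 (adjusted p = 3.70e-10), an index of 0.456, 0.369 and 0.309. ZIF1, a gene of a vacuolar zinc and nicotianamine transporter, rose by 0.82 ± 0.16 (862, 965 and 1089 against 2092, 1554 and 1504). Its intron I002 had 0, 1 and 2 reads in WT and 217, 231 and 167 in prmt5, and the index reached 0.862, 0.937 and 0.803. AT1G12730, the PIG-U gene with one of the largest rises, had no read in its intron I001 in WT and 185, 229 and 185 in prmt5, at an index of 4.55, 4.23 and 3.98. An index over 1 says that the intron was read more densely than the exons, and 76 raised introns in genes that rose had one. In the converse class, CAD1, which encodes a protein with a perforin domain that restrains cell death, rose by 0.63 ± 0.16 while its intron I001 fell from 28, 92 and 31 reads to 7, 19 and 9 (index 1.67 to 0.226).

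Genes that fell with more of an intron included MMZ3, for a ubiquitin-conjugating enzyme variant, at 1278, 1535 and 1278 against 786, 954 and 749 normalized counts (−0.72 ± 0.14, adjusted p = 0.00356). Its intron I003 went from 11, 10 and 11 reads to 120, 135 and 117 and its index from 0.0703, 0.0468 and 0.0847 to 1.30, 0.918 and 1.16. AT5G56140, which encodes a KH domain RNA-binding protein, fell by 0.76 as its intron I001 went from 0, 2 and 3 reads to 56, 62 and 39. AT5G55125, annotated as a ribosomal protein L31 gene, fell by 0.92 as its intron I001 went from 11, 12 and 5 reads to 58, 98 and 105. In these genes the reads of exons and of the intron went in opposite directions without overlap. Falling with less of an intron was seen in CBSX3, a gene of a mitochondrial redox regulator (3449, 3973 and 2788 against 1995, 1703 and 1668, −0.93 ± 0.15), whose intron I002 went from 83, 125 and 38 reads to 10, 9 and 9.

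Large splicing changes also occurred at a steady gene level. SULA, a chloroplast division gene, was at 1675, 1479 and 1443 in WT and 1293, 1502 and 1554 in prmt5 (−0.08 ± 0.13, adjusted p = 0.658), while its intron I011 went from no read to 79, 98 and 72 (mean index 0.686). AT5G08650, annotated as a small GTP-binding protein gene, was at −0.10 ± 0.14, while its intron I011 went from 6, 2 and 7 reads to 360, 266 and 293, an index of 3.14 on average. In AT1G24510, a gene of the TCP-1 chaperonin, an annotated retained intron went from 2, 2 and 1 to 59, 81 and 60 reads at a gene change of 0.11 ± 0.13. A further intron, added after its values were seen and likewise clear of other listed genes, was I001 of AVA-P2, a gene of the vacuolar proton pump. It had 25, 52 and 34 reads in WT and 1109, 1123 and 979 in prmt5, an index of 0.0585 against 1.53, at a gene change of 0.02 ± 0.15. GLDP2, for the P-protein of the photorespiratory glycine decarboxylase, lost reads of its intron I003 (48, 69 and 31 against 8, 12 and 11) at a gene change of 0.03 ± 0.12.

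**Figure D5:**
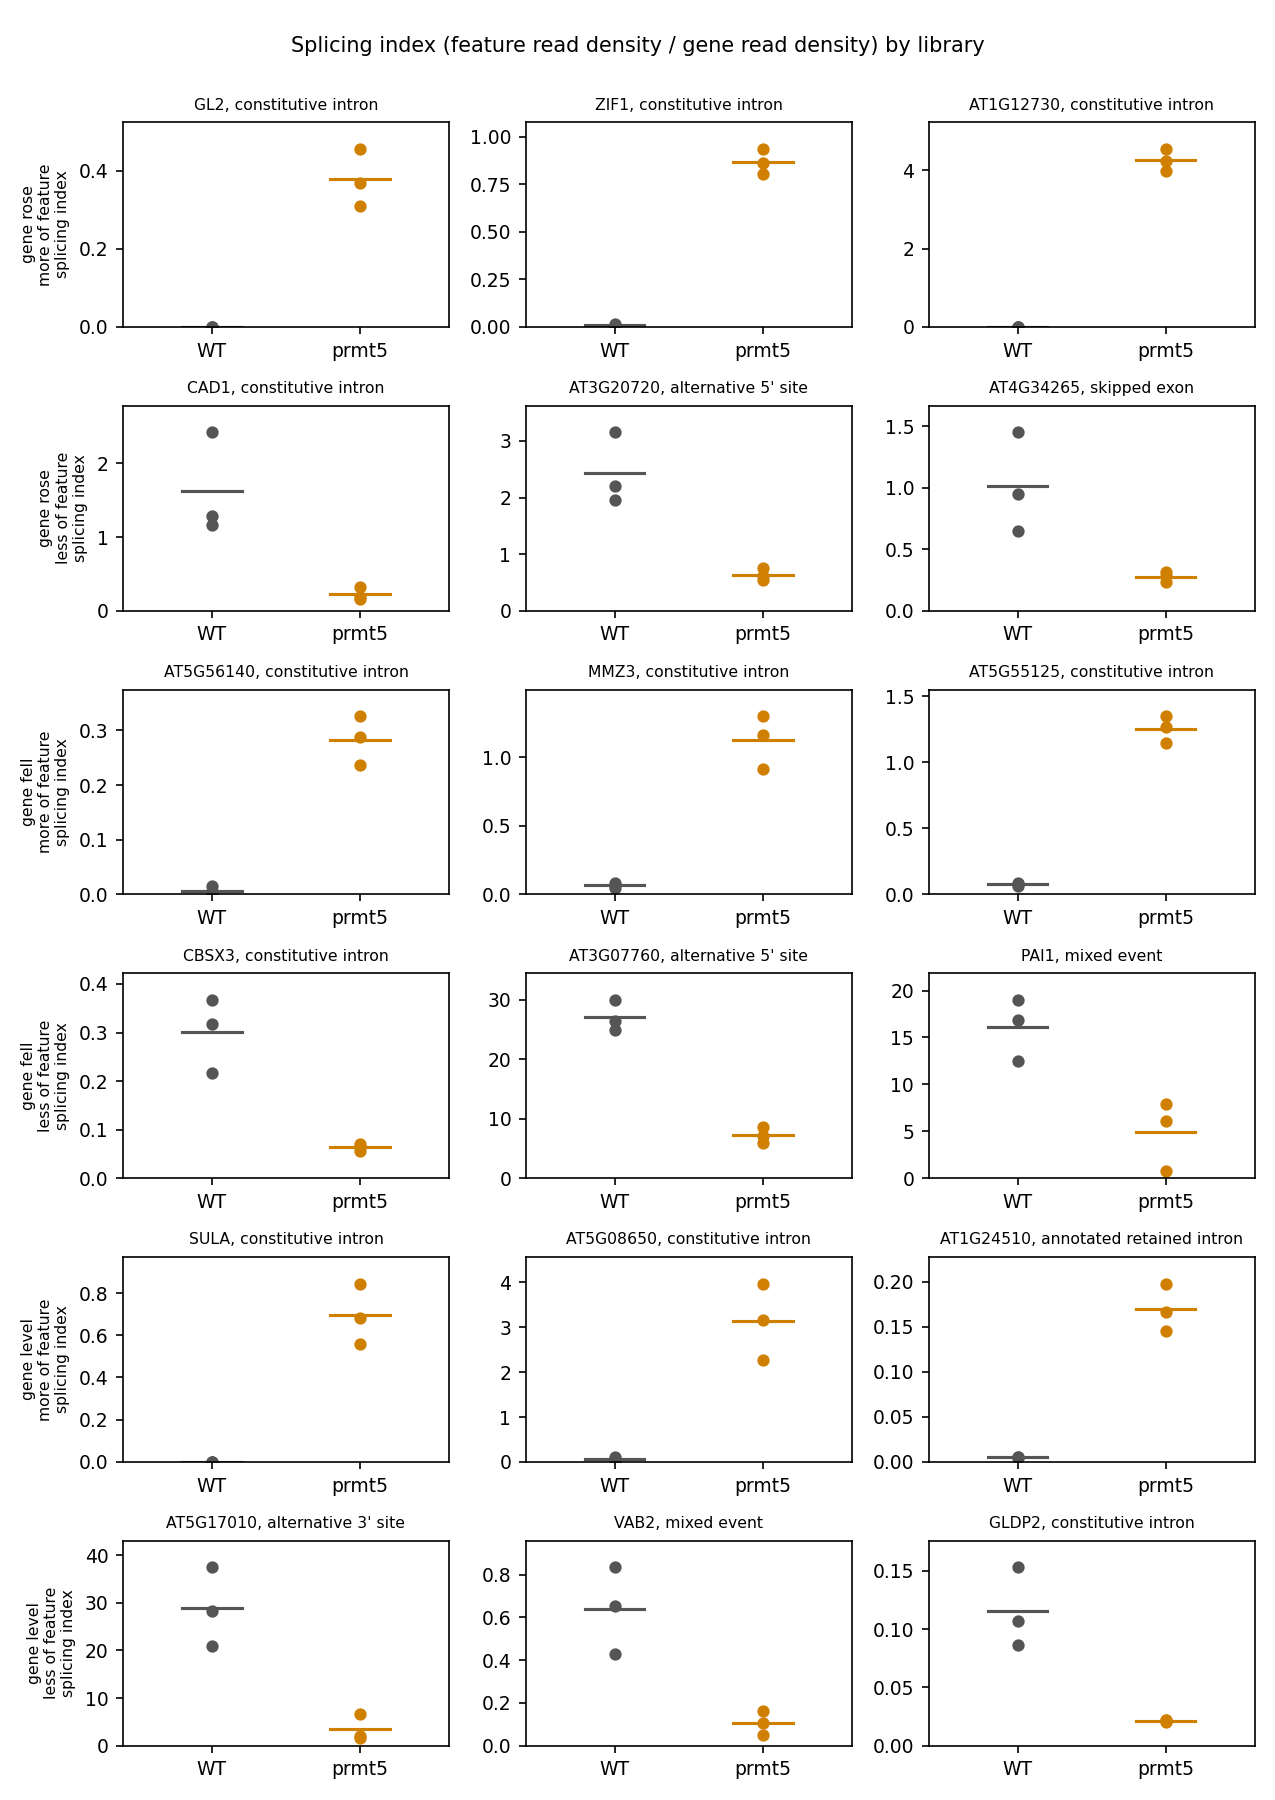
Splicing index, the read density of the intron or bin over that of its gene, in each of the 3 WT (grey) and 3 prmt5 (orange) libraries, with a line at the mean. Rows hold genes that rose, fell or stayed level with more or less of the feature, and axes differ between panels. In MMZ3 the index went from 0.0468 to 0.0847 in WT to 0.918 to 1.30 in prmt5.

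Lists differed in how gene and splicing calls met. Over all 7662 genes with a tested intron 46.4% had a raised and 12.7% a lowered intron by reads, and 48.8% a raised one by share. Among circadian clock genes these were 12, 4 and 13 of 16, while 5 of 24 genes rose and 4 fell in level (3 rises when WT replicate 1 or 2 or prmt5 replicate 1 was left out). PRR9, a morning repressor gene, rose (365, 451 and 354 against 572, 737 and 737, 0.80 ± 0.15) with its intron I004 at 2, 0 and 0 reads in WT and 24, 24 and 37 in prmt5 (adjusted p = 8.03e-06). LHY, a dawn factor gene, fell (2529, 2866 and 1604 against 1394, 1093 and 1017, adjusted p = 0.00417). An annotated retained intron of LHY went from 2, 2 and 3 reads to 27, 9 and 21 (adjusted p = 0.00632). Another intron of LHY lost reads (5, 21 and 5 against 3, 4 and 1, not passing without WT replicate 2). Whether the changes of PRR9 and LHY are linked was not tested. RVE1, which encodes an MYB-like factor that links the clock to auxin, fell by 0.73 (not passing without prmt5 replicate 2) with more of its intron I002 (16, 10 and 3 against 21, 32 and 37) and less of I004 (12, 10 and 0 against none). AT3G54500, a transcriptional coactivator gene of the clock, fell from 7960, 8248 and 5651 to 3059, 2811 and 2541 (−1.38 ± 0.16).

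Of 18 SR genes with a tested intron 11 had a raised one by reads and 9 by share (50%), near the background. Of the 11 that rose 6 had a raised intron, against 67.7% of all 914 genes that rose and had a tested intron. Intron I003 of SR34a went from 2, 8 and 4 reads to 85, 79 and 61 beside the rise of the gene, and RS31 rose by 0.93 with less of its intron I005 (5, 19 and 5 against 0, 6 and 1, not passing without prmt5 replicate 1). SR30 was level (0.14 ± 0.12) with 4 introns raised, of which I009 did not pass when either of WT replicates 1 and 2 or prmt5 replicates 1 and 2 was left out. Of 35 RNA helicase genes with a tested intron 23 had a raised one, and of 12 each in the lists of wax and of iron 8 did. By share these were 22 of 35, 8 of 12 for wax and 6 of 12 for iron, the last near the 48.8% of all genes. All 4 rising wax genes and all 4 rising iron genes with a tested intron had a raised one by reads, against 67.7% of the 914 rising genes. In contrast, none of 9 early auxin response genes had a raised or lowered intron. Of 8 histone genes 1 had a raised intron. Of 9 jasmonate genes 1 had a raised and 3 a lowered one, and the 3 lowered were among the 6 that fell. Of all 1082 genes that fell and had a tested intron, 243 had a lowered and 253 a raised one by reads. The rule by reads is tied to the gene level, so lowered introns are expected mainly in falling genes. Proteasome genes were evenly mixed by reads, with 9 raised and 8 lowered of 28, and 8 had a raised intron by share. Of the 10 that fell 3 had a raised and 4 a lowered intron by reads, beside 253 and 243 of the 1082 falling genes.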

How the data were processed

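Reads were aligned by the authors with TopHat2 2.0.9 to TAIR10, and edgeR 3.4.2 in R 3.0.2 was used, by the submitters' processing notes. The deposited tables hold whole-number read counts, made by the authors without normalization, for genes, AS bins and introns. The columns of the authors' own comparisons (fold changes, false discovery rates, splicing indices) were not used. Libraries were unstranded, so reads of overlapping or antisense genes cannot be told apart, and close paralogs may share reads.

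Genes were tested with edgeR 4.0.16 (glmQLFit and glmQLFTest, TMM factors, Benjamini-Hochberg adjustment over all genes tested) in R 4.3.3, on the 6 libraries. Normalized counts are counts scaled to the mean effective library size. Introns and AS bins had the same test, on library sizes and factors taken from the genes. They needed 5 reads on average in either genotype, a gene read density over 0.05 in both and a splicing index over 0.05 in at least 1, with 0.5 added to read numbers for the index. The share rule used the gene count as offset. Depth was the total of gene reads, and no per-sample column was left unmapped. Donor sequences were read from the RefSeq reference (TAIR10.1).

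The members and lists were chosen with earlier results of these data known. Of 459 list members written by locus and symbol 445 matched the reference and 14 were left out, and families were taken by their annotation. Genes named were PRMT5, the 8 largest rises and falls with 200 normalized counts and no overlap, and up to 3 called members per list and direction with 50 normalized counts. Introns and bins named were, per class of gene and splicing change, the 3 with the largest change of index with 50 reads and no overlap, where a level gene changed by under 0.2 on the log2 scale, and the called ones of the SR, spliceosome and clock lists. Further ones, likewise clear of other listed genes, were added after the values were seen. A part of the genes so chosen is printed.

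In simulated counts, log2 changes of 1 or 2 were put into 100 features each. The filters and test called 70% and 96% of the changed genes (20762 tested), 7% and 45% of the introns (11589) and 40% and 78% of the AS bins (4004), none in the wrong direction. Changed features that failed a filter counted as not found. Far fewer introns were changed than were called in the data, so these rates do not carry over to the real tests. Without a change put in, 25 genes, 14 introns and 32 AS bins were called. Alternatives were DESeq2 1.42.0, other scalings, filters and thresholds, a fit of all 9 libraries, a replicate block and each library left out. Python 3.11.15 with numpy 2.4.6, pandas 2.3.3, scipy 1.17.1 and matplotlib 3.10.9 served for summaries and plots.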

Additional observations from a re-analysis of the deposited data

How the results depend on the processing

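The gene counts stayed within 1.5 times of the values given under every alternative, including DESeq2 (2558 rises and 2858 falls) and the fit of all 9 libraries (2856 and 2680). With single libraries left out they ran from 2131 to 2770 rises and 2533 to 3318 falls. Splicing counts moved with the minimum. With 20 reads, 2186 introns changed (1838 raised and 348 lowered, of 4296 tested) and 432 AS bins were raised. With 5 reads in both genotypes, an alternative chosen after seeing the data, 1818 introns changed (1386 raised and 432 lowered, of 7645 under adjustment over these alone) and 389 AS bins were raised. At an adjusted p under 0.05, 580 introns were lowered and 437 AS bins raised, and DESeq2 lowered 708 introns. Single libraries left out gave 4327 to 4914 raised and 775 to 1499 lowered introns, and 513 to 815 raised and 397 to 650 lowered AS bins.

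The coincidence of gene and splicing changes moved most with the share rule, under which genes rose in 13.8% and fell in 13.7% with a raised intron, 7.77% and 11.4% with a lowered intron, 9.38% and 16.5% with a raised AS bin and 9.36% and 12.5% with a lowered AS bin. At an adjusted p under 0.05 genes rose in 20.8% and fell in 4.89% with a raised intron, fell in 29.4% with a lowered intron and rose in 19.3% with a raised AS bin. With 5 reads in both genotypes they rose in 2.28% and fell in 20.3% with a lowered intron. With single libraries left out the shares were 18.2 to 19.9% rises and 5.11 to 8.65% falls (raised intron), 1.19 to 2.84% and 23.9 to 30.2% (lowered intron), 16.6 to 19% and 4.30 to 7.45% (raised AS bin) and 1.41 to 3.41% and 16.2 to 22.4% (lowered AS bin). The upper values of 2.84% and 3.41% came without WT replicate 3. The causes were not tested.

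Replicate numbers did not pair the samples (correlations of −0.0033, 0.0022 and −0.022 between same-numbered libraries). With a replicate block, 2426 genes rose and 2955 fell, 4330 introns were raised and 838 lowered, and 619 AS bins were raised and 509 lowered. Of 158 genes and 74 introns or bins chosen by the rules, 29 of each lost the call under some alternative. ERF5 alone turned, with log2 changes of −0.03 (prmt5 replicate 3 left out) to 2.19 (WT replicate 2 left out). In simulation introns were recovered least, and depth was not varied there.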
